A study of Homo sapiens with 4 samples.

Results

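Synaptic vesicle exocytosis genes encode the proteins that carry, dock, prime, fuse and retrieve the vesicles of nerve terminals. The 48 genes described here were chosen by function as synaptic vesicle, SNARE and active zone genes, with earlier results of these data known. All 48 were found among the 20162 protein-coding genes of the annotation. A NRSF/REST site was counted at a gene when it lay in the gene or within 10 kb of its boundaries. By this rule 55 of the 5323 sites at the basal SF-1 dosage and 55 of the 5059 sites at the increased dosage belonged to these genes. The sites were mapped by chromatin immunoprecipitation and sequencing in the line H295R/TR SF-1. This is 1 subclone of H295R, a human adrenocortical tumor line, in which doxycycline switches on additional SF-1, the nuclear receptor that controls steroid production. The basal library came from cells without doxycycline, and the increased library from cells kept in doxycycline for 3 days (1 mg/mL in the labels, 1 µg/ml in the study's methods), both with the NRSF/REST antibody. There was 1 library per dosage, so no value has a replicate check and every difference between dosages describes these libraries only. The lists give the position, an order number and a constant score of each site but no read counts, so the depth is unknown. The lists hold no expression values, and the labelled cell type could not be set against marker genes.

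NRSF/REST is a zinc finger repressor that recruits histone deacetylases and other corepressors to neuronal genes and keeps them low outside the nervous system. It binds the RE1 element, which is made of a left and a right part. Here the element was searched as CAGCACC followed by GGACAG with 2 bases between them, on both strands, and a region with at most 2 mismatches over the 13 fixed bases was said to hold the consensus. Endocrine cells that store their products and release them by calcium-triggered fusion share part of the vesicle machinery of neurons. Whether this holds for H295R was not examined here.

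The sites of the exocytosis genes held 14 matches with no mismatch, each in a site called at both dosages. These are printed to show the bases between and around the fixed ones, with the 2 bases before and the 4 bases after the consensus, read in its direction from the hg19 sequence. Capitals mark the bases that match.
SYP, chrX:49056581-49056601, minus strand: tcCAGCACCgtGGACAGagcc
SYN1, chrX:47479469-47479489, minus strand: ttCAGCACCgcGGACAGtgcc
SYT2, chr1:202662272-202662292, minus strand: ttCAGCACCatGGACAGagct
SYT4, chr18:40857258-40857278, minus strand: ttCAGCACCtcGGACAGaaca
SYT5, chr19:55691568-55691588, minus strand: atCAGCACCcgGGACAGcgcc
SYT6, chr1:114697840-114697860, minus strand: ttCAGCACCgtGGACAGagcc
SYT7, chr11:61334822-61334842, minus strand: ttCAGCACCttGGACAGctct
SYT9, chr11:7293803-7293823, minus strand: ccCAGCACCaaGGACAGtgac
RPH3A, chr12:113229353-113229373, minus strand: gtCAGCACCacGGACAGcgct
DOC2A, chr16:30040139-30040159, plus strand: gtCAGCACCacGGACAGggcc
SNAP25, chr20:10200320-10200340, plus strand: ttCAGCACCggGGACAGcggt
RIMS4, chr20:43408984-43409004, minus strand: gtCAGCACCacGGACAGttcc
UNC13A, chr19:17792562-17792582, minus strand: ttCAGCACCgtGGACAGcgcc
CADPS, chr3:62515094-62515114, plus strand: agCAGCACCttGGACAGcagc

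Of these 14 matches, 7 were preceded by a pair of T's. The 13 fixed bases are equal in all 14 because the matches were chosen for them. At RPH3A, UNC13A and CADPS the match did not lie in the site that was widest at both dosages, and these were chosen after their values were seen.

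The next 9 elements had 1 mismatch and were the best match of a site called at both dosages. Each substitution gives the consensus base, its position counted from 1 at the 5′ end of the consensus, and the base found.
SV2B, chr15:91730674-91730694, minus strand, C7A: ttCAGCACattGGACAGtgac
SYT2, chr1:202626539-202626559, plus strand, C4G: gtCAGgACCctGGACAGaagc
RPH3A, chr12:113250594-113250614, minus strand, G10A: ttCAGCACCataGACAGtagc
RPH3A, chr12:113306423-113306443, plus strand, C4G: ttCAGgACCaaGGACAGatct
CPLX2, chr5:175298891-175298911, minus strand, C13G: ttCAGCACCacGGAgAGcgca
RIMS3, chr1:41104296-41104316, minus strand, C4T: ttCAGtACCagGGACAGtggc
RIMS3, chr1:41119746-41119766, plus strand, C4T: ggCAGtACCacGGACAGcggc
RIMS4, chr20:43405823-43405843, plus strand, C13T: ttCAGCACCagGGAtAGcgcc
PCLO, chr7:82790675-82790695, plus strand, C4A: ttCAGaACCacGGACAGaaaa

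The substitution was at C4 in 5 of these 9 elements. Only SV2B and the RIMS3 element on the minus strand lay in the widest site of their gene. The other 7 were added after their values were seen.

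Most exocytosis genes had a site. At the basal dosage 29 of 48 genes (60.4%, 95% Wilson interval 46.3 to 73.0) had at least 1 site, beside 13.9% of all protein-coding genes. At the increased dosage 30 of 48 genes (62.5%, 48.4 to 74.8) had a site, beside 13.6% of all protein-coding genes. A site at both dosages was present at 29 genes, beside 10.5% of all protein-coding genes, and at 28 of them a basal site overlapped a site of the increased list. A site with the consensus was found at 21 of the 48 genes. The intervals cover counting error over genes only. Because the genes were chosen with earlier results of these data known, no test was made against other genes.

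The exocytosis genes were long, with a median length of 66.5 kb beside 27.2 kb for other protein-coding genes, and long genes more often hold a site. In every length class the share was higher for the exocytosis genes. Below 20 kb, 5 of 11 exocytosis genes (45.5%) had a basal site beside 8.53% of other genes of that class. From 50 to 100 kb 6 of 8 had a basal site beside 13.5% of other genes. At 200 kb and over 11 of 15 exocytosis genes (73.3%, 48.0 to 89.1) had a basal site beside 654 of 1488 other genes. At the increased dosage 12 of these 15 (80.0%, 54.8 to 93.0) had a site beside 42.6% of other genes, SYT1 being the addition. The median length in this open-ended class was 409 kb for the exocytosis genes and 319 kb for other genes, so length was not matched within it. At the percentages of the other genes of the same class, 10.6 of the 48 genes would have a basal site and 10.4 a site at the increased dosage.

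**Figure D1:**
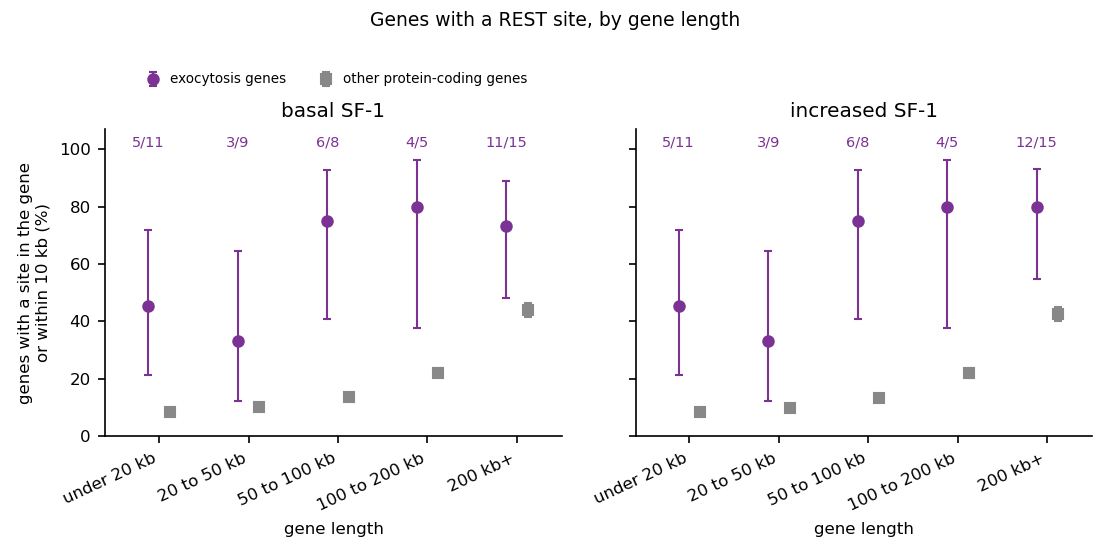
Percentage of genes with a REST site in the gene or within 10 kb (vertical axis) by class of gene length (horizontal axis) in the basal and the increased library, for the 48 exocytosis genes (circles) and the other protein-coding genes (squares). Bars are 95% Wilson intervals over genes and the fractions give exocytosis genes with a site. In the class from 20 to 50 kb the interval of the exocytosis genes, 12.1 to 64.6% at the basal dosage, came closest to the value of other genes, 10.3%.

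A list of 41 other neuronal exocytosis genes had a site at 16 genes (39.0%) in the basal and at 17 genes (41.5%) in the increased library. These included SYNPR, RIMBP2, SYT14, SLC18A3, SNCB and SCAMP5. Among 40 widely expressed paralogs, which act in many steps of membrane traffic and of which many belong to the same protein families, 1 gene (2.50%) had a basal site and 3 genes (7.50%) had a site at the increased dosage. The basal site gene was ERC1, and STX5 and STX8 were the others at the increased dosage. The neuronal SNAP25 had a site at both dosages whereas its paralogs SNAP23, SNAP29 and SNAP47 had none, and DNM1 had a site whereas DNM2 had none. The same held for SYP beside SYPL1, AMPH beside BIN1, UNC13A beside UNC13D and RAB3C beside RAB3D. These pairs were chosen after their values were seen, and other pairs did not show this difference. VAMP2, STX1A, RAB3A and SYNGR3 had no site at either dosage, and neither had VAMP3, STX2, RAB3D or SYNGR2. The median gene length was 52.2 kb in the former list and 50.8 kb in the latter. These lists too were chosen with earlier results of these data known, and no test was made between them.

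The sites of the exocytosis genes were wide and lay early in the lists. Their median width was 599 bp at the basal and 649 bp at the increased dosage, beside 349 bp at either dosage for sites of other protein-coding genes. Widths ranged from 99 to 1599 bp in the basal list and from 99 to 1349 bp in the increased list. In the first 1000 sites of the list lay 25 of 55 basal sites (45.5%, 33.0 to 58.5) and 26 of 55 sites at the increased dosage (47.3%, 34.7 to 60.2). The first 1000 are 18.8% and 19.8% of all sites. What sets the order number is not given in the sources used here.

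The sites of both lists formed 64 loci, a locus being 1 site or a group of overlapping sites. At both dosages 45 loci were called, 9 at the basal dosage only and 10 at the increased dosage only. Of the basal sites 46 of 55 (83.6%, 71.7 to 91.1) overlapped a site of the other list, beside 66.9% of sites at other protein-coding genes. For the increased dosage these values were 45 of 55 (81.8%, 69.7 to 89.8) and 69.9%. The sites of other genes were narrower, as given above, and were not matched for width. Among the basal sites of the exocytosis genes the median width was 724 bp for shared and 149 bp for other sites. The 19 loci called at 1 dosage only were at most 299 bp wide, had an order number of 2890 or later, and none held the consensus. Some of them lay beside a shared locus of the same gene. At CPLX1 such a site ended at chr4:818699 and the shared locus began at chr4:818701. Whether such sites are parts of the shared site was not tested. Of the 28 genes with an overlapping site, 17 had 1 such locus, 7 had 2 and 4 had 3 or more.

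**Figure D2:**
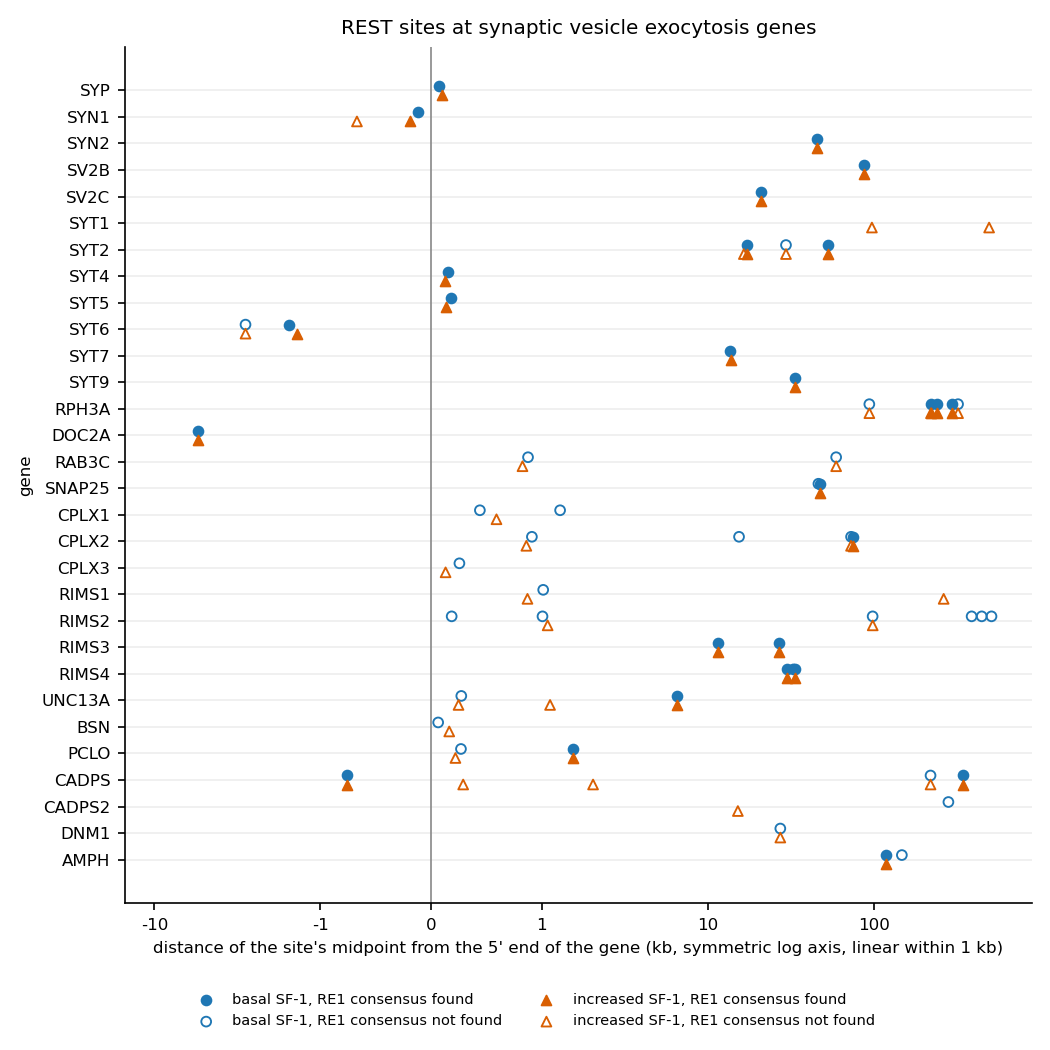
Position of every REST site at the 30 exocytosis genes with a site: the horizontal axis gives the distance of the site's midpoint from the 5' end of the gene in kb on a symmetric log axis that is linear within 1 kb, negative values lie upstream, circles are the basal and triangles the increased library. Filled symbols hold the RE1 consensus (27 of 55 at each dosage), and the symbols present at 1 dosage only are all open.

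The vesicle membrane and vesicle-associated proteins include synaptophysin, the synapsins, which tether vesicles in the reserve pool, and the SV2 glycoproteins. Of these 8 genes 5 had a site at both dosages, and all 5 shared loci held the consensus. At SYP, which encodes synaptophysin, the site chrX:49056301-49056849 was 499 bp wide at the basal and 549 bp wide at the increased dosage. Its order numbers were 645 and 687, and its match with 0 mismatches lay in intron 1, 43 bp from the nearest annotated transcript start. The antisense gene SYP-AS1 overlaps the same stretch. At SYN1, which encodes synapsin I, the site chrX:47479001-47479749 spanned the promoter, with 749 and 599 bp, order numbers 566 and 574, and a match with 0 mismatches at -224 bp from the start. A further site of 149 bp upstream of SYN1 was called at the increased dosage only.

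Sites at the other 3 vesicle genes were far inside long genes. At SYN2 the site chr3:12091001-12091749 in intron 4 measured 599 and 749 bp, with order numbers 654 and 803 and 2 mismatches (C4T and C13G). At SV2B the site chr15:91730251-91731099 in intron 1 measured 749 and 799 bp, with order numbers 314 and 379 and 1 mismatch. SV2C carried the site chr5:75399701-75400549 in intron 1, of 749 bp at both dosages, with order numbers 512 and 382 and 2 mismatches (C7T and A12C). SYN3, SV2A and SYNGR3, which encodes a synaptogyrin, had no site within 10 kb. The site nearest to SYN3 was 17.8 kb away in the basal list and 17.7 kb in the other, whereas SV2A and SYNGR3 were 430 and 466 kb from the nearest basal site.

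Synaptotagmins are vesicle proteins with C2 domains, several of which sense calcium. Of 12 synaptotagmin genes 6 had a site at both dosages, 1 at the increased dosage only and 5 at neither. The consensus was held by 7 of their 9 shared loci, and each of the 6 genes had a match with 0 mismatches. SYT7, a high-affinity calcium sensor, had the site chr11:61334251-61335349 in intron 1, with 899 and 1099 bp and order number 24 in both lists. At SYT5 the site chr19:55690851-55692199 covered the start of the gene, with 1249 and 1349 bp and order numbers 114 and 123, and the match lay in untranslated exon 1, 65 bp from the nearest start. At SYT4 the site chr18:40857051-40857699 covered untranslated exon 1, with 599 and 649 bp and order numbers 620 and 667, and its match lay 72 bp from the start. SYT4 and SYT5, 9.64 and 9.09 kb long, had the element at the start of the transcript, while SYT2, SYT7 and SYT9 had it in intron 1.

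The widest site of SYT6 was chr1:114697251-114698849, upstream of the gene, with 1599 bp at the basal and 1249 bp at the increased dosage and order numbers 622 and 477. This was the widest basal site of all exocytosis genes. A second SYT6 locus, of 449 bp at both dosages, lay further upstream and did not hold the consensus. SYT2, a fast calcium sensor, had 3 shared loci in intron 1. The widest, chr1:202661901-202662749, measured 849 and 749 bp with order numbers 130 and 157 and 0 mismatches, and the others measured 749 and 599 bp and 449 bp at both dosages. SYT9 had the narrowest site with a full match, chr11:7293651-7293899 in intron 1, of 249 and 199 bp with order numbers 3240 and 3161.

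SYT1, the main calcium sensor of fast release, had no basal site. At the increased dosage it had 2 sites of 199 bp, chr12:79355351-79355549 in intron 1 and chr12:79754151-79754349 in intron 9, with order numbers 3252 and 3971 and with 5 and 3 mismatches. SYT3, SYT10, SYT11, SYT12 and SYT13 had no site at either dosage. The nearest basal site was 55.3 kb from SYT3 and 584 kb from SYT12.

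Among the other C2 domain proteins and the Rab3 group, 3 of 6 genes had a site at both dosages. RPH3A encodes rabphilin, which binds Rab3 on vesicles, and had 5 shared loci, the most of any exocytosis gene. The widest basal site was chr12:113228851-113229899 at a transcript start inside the gene, with 1049 and 949 bp and order numbers 146 and 119, and its match with 0 mismatches lay in an untranslated exon 21 bp from that start. The widest site of RPH3A at the increased dosage was in the locus chr12:113101851-113103099, outside the canonical transcript, with 949 and 1249 bp, order numbers 415 and 304 and 4 mismatches. Loci in intron 2 and at coding exon 8 held the consensus with 1 mismatch, and a locus of 299 and 249 bp in intron 19 did not hold it.

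DOC2A encodes a calcium-binding C2 domain protein of vesicles. Its site chr16:30039651-30040399, of 699 and 749 bp with order numbers 1025 and 975 and 0 mismatches, lay upstream of the gene, in the neighbouring gene TLCD3B. RAB3C, a vesicle GTPase, had the site chr5:57878551-57879249 at a transcript start, of 649 bp at both dosages with order numbers 897 and 965 and 3 mismatches, and a narrower locus in intron 2. RAB3A, RAB3B and DOC2B had no site within 10 kb. RAB3B came closest, with a site 11.6 kb away in each list, and RAB3A was 28.8 kb from the nearest basal site.

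SNAREs are the proteins that fuse vesicle and plasma membrane, and complexins clamp and release them. Of these 8 genes SNAP25 and the 3 complexin genes had a site at both dosages. At SNAP25 the site chr20:10199901-10200699 in intron 1 measured 749 and 799 bp, with order numbers 18 and 21, the lowest basal number of any exocytosis gene. Its match with 0 mismatches lay 522 bp from the nearest start, in a stretch that SNAP25-AS1 overlaps. A site of 199 bp in untranslated exon 1 of SNAP25 was called at the basal dosage only. Its midpoint lay 72 bp from the start of the canonical transcript, and that of the shared basal site lay 797 bp from it.

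The complexin genes had wide sites at their starts without the consensus. At CPLX2 the site chr5:175223501-175224949, near the distal start of the gene, measured 1449 and 1349 bp with order numbers 20 and 19 and 3 mismatches. A second wide CPLX2 locus of 899 and 849 bp at a proximal start held the consensus with 1 mismatch. At CPLX1 the locus chr4:818701-819949 in intron 1 measured 949 and 1249 bp with order numbers 73 and 59 and 3 mismatches. At CPLX3 the locus chr15:75118701-75119699 measured 949 and 799 bp with order numbers 1300 and 1331, and the best match had 3 mismatches in the basal and 4 in the narrower increased site. VAMP1, VAMP2, STX1A and SNPH, which encodes the syntaxin-binding syntaphilin, had no site within 10 kb, so the vesicle SNAREs and syntaxin 1A lacked a site while their partner SNAP25 had one. STX1A was 92.1 kb from the nearest site at both dosages and VAMP2 was 844 kb away.

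The active zone is the release site on the presynaptic membrane, and its scaffold and priming proteins had the most shared loci. Of 11 genes 9 had a site at both dosages, and 8 of their 15 shared loci held the consensus. The median gene length of this group was 409 kb, against 66.5 kb for all exocytosis genes. UNC13A and its relatives encode Munc13 proteins, which prime vesicles for fusion. UNC13A had a promoter site, chr19:17798401-17799399, of 999 and 949 bp with order numbers 449 and 408 and 3 mismatches, and a site in intron 1 of 899 and 949 bp with 0 mismatches. BSN and PCLO encode the large scaffolds bassoon and piccolo. At BSN the site chr3:49591401-49592549 covered the start of the gene, with 1149 and 949 bp, order numbers 575 and 487 and 4 mismatches.

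PCLO had the site chr7:82791651-82792349 at its start, of 649 bp at both dosages with order numbers 1711 and 1973 and 4 mismatches, and a site of 499 bp in intron 1 with 1 mismatch. RIM proteins link Rab3, Munc13 and calcium channels, and all 4 RIM genes had a site at both dosages. At RIMS1 the site chr6:72596851-72597399 in intron 1 measured 249 and 549 bp with order numbers 3186 and 2821 and 4 mismatches. At RIMS2 the site chr8:104513301-104514449 in intron 1 measured 1099 and 1049 bp with order numbers 623 and 652 and 3 mismatches. RIMS2 also had 4 narrow sites called at the basal dosage only, of 99 to 249 bp. At RIMS3 the locus chr1:41104051-41104699 in intron 3 measured 449 and 649 bp with order numbers 1834 and 1572 and 1 mismatch. At RIMS4 the locus chr20:43408501-43409599 in intron 1 measured 999 and 1099 bp with order numbers 263 and 178 and 0 mismatches.

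CADPS and CADPS2 encode CAPS proteins, which prime dense-core vesicles. At CADPS the widest site, chr3:62861451-62862249, lay upstream of the gene, with 799 bp at both dosages, order numbers 152 and 145 and 2 mismatches (C7G and A12C). A CADPS site in intron 13, of 549 bp at both dosages, held the match with 0 mismatches. CADPS2 had 1 site at each dosage, chr7:122244451-122244649 of 199 bp at the basal and chr7:122511551-122511649 of 99 bp at the increased dosage, which did not overlap. UNC13B and UNC13C had no site within 10 kb.

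The endocytosis genes encode proteins that retrieve vesicle membrane after fusion. At DNM1, which encodes dynamin 1, the site chr9:130981101-130981599 over coding exon 4 measured 499 and 399 bp with order numbers 1882 and 2122 and 4 mismatches. At AMPH, which encodes amphiphysin, the site chr7:38552001-38552799 in intron 2 measured 599 and 799 bp with order numbers 1269 and 1305 and 2 mismatches (C1T and A2G). SNAP91, a clathrin adaptor, had no site within 10 kb, and the nearest basal site was 31.5 kb away.

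**Figure D3:**
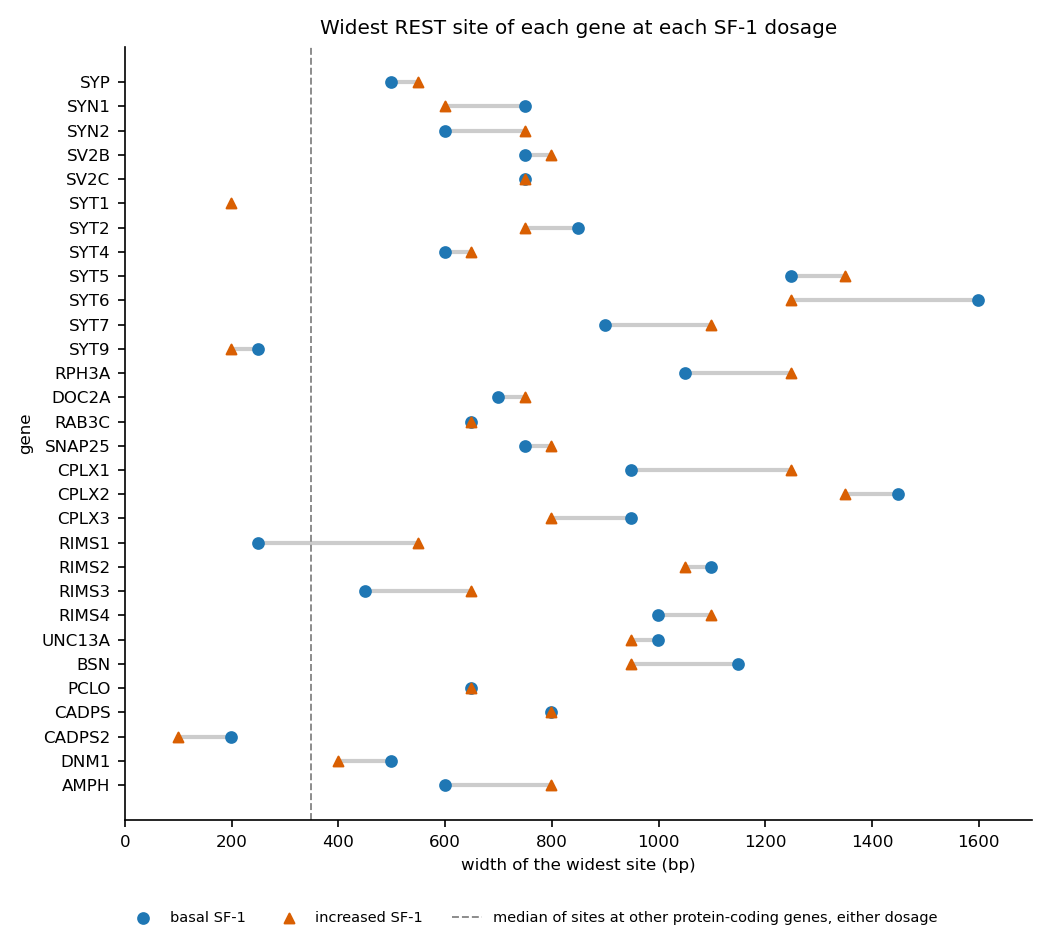
Width in bp of the widest REST site (horizontal axis) of each exocytosis gene with a site, at the basal (circles) and the increased SF-1 dosage (triangles), joined by a grey line, with 1 library per dosage. The dashed line is the median of 349 bp for sites at other protein-coding genes, and SYT1, SYT9 and CADPS2 lie to its left at every dosage at which they have a site, as does RIMS1 at the basal dosage only.

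Neither dosage had the wider sites throughout. Of the 44 loci with exactly 1 site in each list, 18 were wider at the basal dosage, 16 were wider at the increased dosage and 10 were equal. The median of the basal minus increased width was 0 bp and the differences ran from -300 to 350 bp. The largest positive difference was at SYT6, and the most negative ones were at RPH3A, CPLX1 and RIMS1. With 1 library per dosage and unknown depth these differences cannot be set against a replicate error. The SF-1 element, CAAGG followed by A, C or T and CA on either strand, lay in 7 of 55 sites (12.7%) at each dosage and in 9 of 55 windows of equal width 10 kb upstream (16.4%). An RE1 match with AA between its parts also spells CAAGGACA. This was so for matches in the sites of SYT7, SYT9 and RPH3A (coding exon 8), so the count is not one of separate elements.

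The rule that chose the genes did not use sequence, and the consensus was tested against windows of equal width 10 kb upstream, toward lower coordinates. The study reports the NRSF/REST sequence as highly enriched in its NRSF/REST sites at both dosages, so an excess in sites was known beforehand. The test therefore does not set the exocytosis genes apart from other genes. The consensus was present in 27 of 55 sites and 3 of 55 windows (5.45%) at each dosage. Only the site held it in 25 pairs and only the window in 1 pair, and the exact two-sided McNemar test gave p = 8.05e-07 at each dosage. The share of 49.1% (36.4 to 61.9) was near that of the sites at other protein-coding genes, 44.6% at the basal and 45.8% at the increased dosage. The test takes sites as units, several share a gene, and the basal and increased lists hold mostly the same loci, so the values are not independent.

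**Figure D4:**
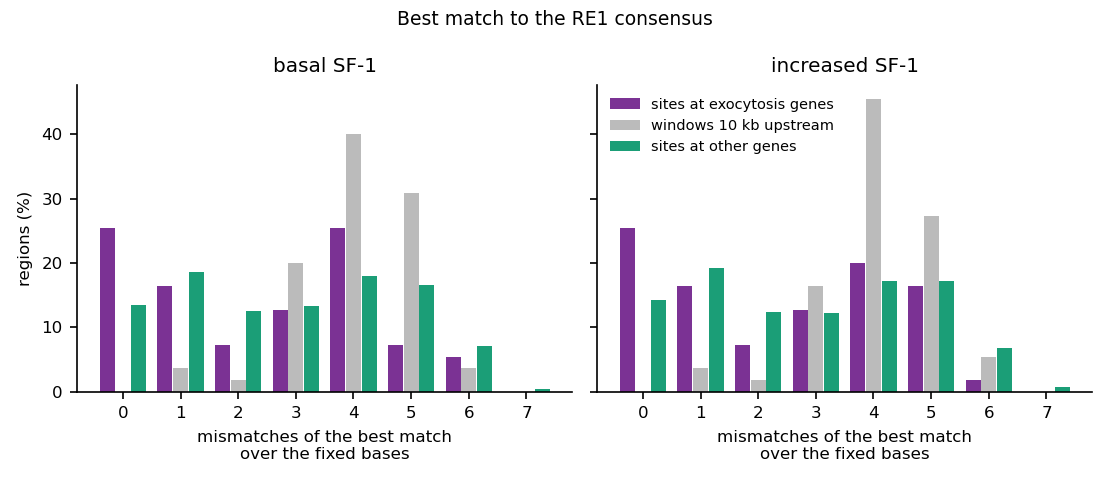
Mismatches of the best match to the RE1 consensus over its 13 fixed bases (horizontal axis) in sites of the exocytosis genes (purple), in windows of equal width 10 kb upstream (grey) and in sites of other protein-coding genes (green), as percent of regions (vertical axis) in each library. With 0 mismatches stood 14 of the 55 sites of the exocytosis genes (25.5%) and none of their windows.

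The 27 shared loci with the consensus had 0 mismatches in 14, 1 mismatch in 9 and 2 mismatches in 4. The match lay in an intron in 20 of them, in an untranslated exon in 3 and upstream of the gene in 4, and in none in a coding exon of the canonical transcript. It was on the strand of the gene in 14 of 27. Of the 45 shared loci 20 lay within 1 kb of an annotated start, at 17 genes. The consensus was held by 9 of these 20 (45.0%, 25.8 to 65.8) and by 18 of the 25 loci further away (72.0%, 52.4 to 85.7). These intervals overlap.

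Several sites without the consensus held its parts further apart. A site was said to hold them when both parts, each with at most 1 mismatch, stood in their order with 8 or 9 bases between them. This was so in 8 of 28 basal sites without the consensus (28.6%, 15.3 to 47.1) and in 7 of 28 at the increased dosage (interval 12.7 to 43.4). It was found in 1 of 28 of their windows at each dosage (3.57%) and in 10.5% and 10.2% of sites without the consensus at other protein-coding genes. The sites of other genes were not matched for width. Those at the starts of complexin genes and UNC13A are printed, chosen after their values were seen, with the matching bases in capitals.
CPLX1, chr4:819484-819504, plus strand, 8 bases apart: CAGCACCgcggcagtGGACAG
CPLX2, chr5:175224037-175224057, plus strand, 8 bases apart: CAGCACtgcagcggcGGACAG
CPLX2, chr5:175224149-175224169, plus strand, 8 bases apart: tAGCACCgcggcggcGGACAG
CPLX3, chr15:75118953-75118974, minus strand, 9 bases apart: CAGCACtaggtttcgcGGACAG
UNC13A, chr19:17799151-17799171, plus strand, 8 bases apart: CAGCACCgggggcgcGGACAG

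At CPLX1 and UNC13A both parts matched with 0 mismatches. The UNC13A element lay in untranslated exon 1, 2 bp from the start, and the CPLX1 element in intron 1, 386 bp from the nearest start. CPLX2 held such an element at 2 places of its distal site. BSN, PCLO, RIMS1, RIMS2, RAB3C and DNM1 had a shared locus within 1 kb of an annotated start with neither the consensus nor parts 8 or 9 bases apart. The basal promoter sites of BSN and PCLO were rich in G and C, at 72.6% and 72.3%, and that of CPLX1 at 76.4%. So was the basal SYP site, which held the consensus, at 73.1%. Over all basal sites of the exocytosis genes the median was 50.1% with the consensus and 51.0% without it. A match is a description of the letters, and no match says only that these letters are not in the site.

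The reverse question is how many consensus matches at the exocytosis genes lay in a site. All 14 matches with 0 mismatches in or within 10 kb of these genes lay in a site at both dosages. At other protein-coding genes 426 of 560 such matches (76.1%, 72.4 to 79.4) lay in a site at either dosage, an interval that overlaps that of the exocytosis genes, 78.5 to 100%. With 1 mismatch 12 of 40 matches (interval 18.1 to 45.4%) lay in a site, beside 12.4% (11.5 to 13.4) at other genes. With 2 mismatches 7 of 299 (2.34%) did, beside 0.986%. Some of these lay in a site that also held a match with 0 mismatches. With 1 mismatch they were at SYT7 (G15A), SNAP25 (C13T) and RIMS4 (G11A), and with 2 mismatches at SYP, SYT4 and SYT6. Matches of this kind were not left out at other genes either. None of the 18 exocytosis genes without a site held a match with 0 mismatches, 6 of them held 7 matches with 1 mismatch, and 15 held 100 matches with 2 mismatches. Genes with no site were shorter, with a median of 34.3 kb, than the 29 genes with a site at both dosages, with a median of 117 kb.

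The searched consensus left out the bases before CAGCACC, where the NRSF/REST probe of the study's binding assay has a pair of T's. Matches with 1 mismatch at the exocytosis genes differed in these bases. Among the 12 in a site 8 were preceded by a pair of T's, including the SYT7 match, and among the 28 outside a site 2 were. Some outside a site are printed for comparison with the bound elements above, with the coordinates of the 15-base match, and were chosen after their values were seen.
RAB3A, chr19:18311460-18311474, minus strand, G11C: caCAGCACCtgGcACAGtacg
RAB3B, chr1:52424658-52424672, minus strand, G11C: tcCAGCACCagGcACAGggcc
RPH3A, chr12:113328521-113328535, minus strand, C4T: gcCAGtACCagGGACAGcaga
SV2B, chr15:91646877-91646891, minus strand, A2T: ttCtGCACCaaGGACAGctga
UNC13C, chr15:54821730-54821744, plus strand, G11A: ttCAGCACCtaGaACAGtgat

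The unbound RPH3A match and the bound RIMS3 match on the minus strand share all 15 bases from the start to the end of the consensus and differ in the bases around it. The substitution was at G11 in 11 of the 28 matches outside a site and in 1 of the 12 inside, at RIMS4 in a site that also held a match with 0 mismatches. At C4 it was in 5 of 12 inside and 2 of 28 outside. Since these patterns were seen in the exocytosis genes, the same counts were made in the rest of the genome. There 429 of 793 matches with 1 mismatch preceded by a pair of T's (54.1%, 50.6 to 57.5) lay in a site, and 568 of 7224 of those not so preceded (7.86%, 7.26 to 8.51). With a substitution at C4, 343 of 691 matches (49.6%) lay in a site, and with a substitution at G11 51 of 1819 (2.80%). These are descriptions with no test.

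**Figure D5:**
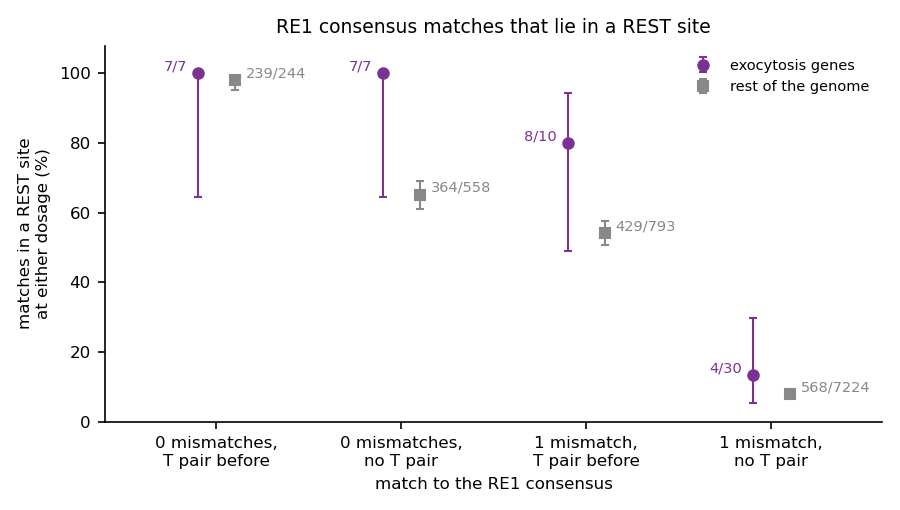
Percentage of matches to the RE1 consensus that lay in a REST site at either dosage (vertical axis), by mismatches and by whether a pair of T's stands before the match (horizontal axis), for the exocytosis genes (circles) and the rest of the genome (squares). Bars are 95% Wilson intervals over matches and the fractions give matches in a site of all matches. With 1 mismatch 8 of 10 matches with the T pair and 4 of 30 without it lay in a site at the exocytosis genes.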

How the data were processed

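NRSF/REST sites were taken from the 2 deposited lists, 1 per SF-1 dosage, as the authors called them in each library. Reads had been aligned by the authors to hg19 (ELAND; the submitters' processing notes name CASAVA 1.6). The peak caller for NRSF/REST is not given in the sources used here. The deposited score columns hold an order number and the constant 1000, which give no binding strength. The other deposited columns are coordinates, in bp. The 2 input DNA libraries of the labels were not analysed here. Depth is unknown, so intervals cover counting of genes, sites or matches only, and widths can depend on depth.

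Starts were counted from 1. Gene boundaries and starts came from GENCODE release 44 mapped to hg19, on the main chromosomes. Sites with an overlap of at least 1 bp were called shared. Places of sites were read at the midpoint of the site, and places of matches at the midpoint of the match. They were read in the canonical transcript, or outside it in the exons of other protein-coding transcripts of the gene. RE1 matches were searched in the hg19 sequence with pysam 0.24.0 and numpy 2.4.6 under Python 3.11.15. Wilson intervals (95%) and tests used scipy 1.17.1, and the exact two-sided McNemar test was the only test. The searches for the consensus, for its parts at another distance and for overlaps were tested on simulated data, as was the McNemar test. The other steps were not. The genes and the lists were chosen with earlier results of these data known. Every gene was named, with full values for the widest site of genes with a site at both dosages, and printed sequences were those of the widest shared site with at most 1 mismatch. Exceptions are stated. The alternatives were other flanks, assignment by midpoint, boundaries of protein-coding transcripts, the widest or first 50% of each list, other rules for sharing, other mismatch limits and windows, the widest site per gene and merging within 500 bp.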

Additional observations from a re-analysis of the deposited data

How the results depend on the processing

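The number of exocytosis genes with a site ran from 26 to 33 at the basal and from 26 to 35 at the increased dosage over the 7 alternatives, and the number of sites from 40 to 71 and from 39 to 71 over 8. The excess of the RE1 consensus in sites over windows ran from 25.5 to 57.5 percentage points (basal) and from 25.5 to 59.0 (increased), with the exact McNemar p at most 2.75e-04 and 5.19e-04. The background moved more. With sites within 50 kb, 5219 (basal) and 5100 (increased) protein-coding genes had a site. With the widest 50% of each list these were 1683 and 1593, and with the first 50% by order number 1663 and 1591. Shared sites came to 97.5% at each dosage in the widest 50%, to 92.9% (basal) and 100% (increased) in the first 50%, to 78.2% at each dosage where the overlap had to cover 50% of each site, and to 70.9% at each dosage with midpoints within 100 bp. In the widest 50% the median width was 749 bp at both dosages. The counts follow from keeping fewer sites or setting another distance, and for the shared percentages the cause was not tested. No paired analysis was possible because each dosage has 1 library, and for the same reason no replicate could be left out. The unknown depth limits what the absence of a site can show.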
